A study of Mus musculus with 31 samples.

Results

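The Hox genes encode homeodomain transcription factors that lie in 4 chromosomal clusters and give cells of the embryo their position along the head-to-tail axis. Genes of the clusters that descend from the same ancestral gene form a paralog group, numbered from 1 at the anterior end of a cluster to 13 at its posterior end, and low-numbered genes are in general switched on earlier and further forward than high-numbered ones. Opening of the clusters is driven in the embryo by retinoic acid, Wnt and Fgf signals and by the Cdx factors, and Polycomb complexes keep unused parts of the clusters silent. Outside the embryo proper, Hox genes of the middle paralog groups are expressed in mesoderm that leaves the posterior primitive streak, and several Hox genes act in blood progenitors.

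All genes whose symbol is Hox followed by a cluster letter and a number were taken, without antisense transcripts, which gave 27 of the 18477 genes measured. They comprised 8 genes of the Hoxa cluster on chromosome 6, 9 of Hoxb on chromosome 11, 7 of Hoxc on chromosome 15 and 3 of Hoxd on chromosome 2. The mouse annotation used here names 39 Hox genes, and the other 12 were not analysed here.

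The measurements were RNA-seq values of 31 mouse yolk sac samples at embryonic day 8.5, matched by somite number, in an allelic series of Etv2, the Ets factor that specifies endothelial and blood progenitors. The groups were Etv2 Δ/Δ (n = 5), Etv2 enhΔ/Δ (n = 5), Etv2 enhΔ/enhΔ (n = 5), Etv2 +/Δ (n = 6), Etv2 +/enhΔ (n = 4) and Etv2 +/+ (n = 6). The sample labels spell Δ as delta. The Δ allele is a germline deletion of the exons for the DNA-binding domain, made from a floxed allele with Cre. The enhΔ allele lacks an upstream Etv2 enhancer, was made by genome editing in FVB zygotes, and the mice were of mixed background. Each library was counted in 2671612 to 22396340 reads (median 13894962), so that 1 read was worth 0.0440 to 0.378 CPM, the unit of reads scaled to library size. Differences are given on the log2(CPM + 1) scale with the standard error (SE) of a limma fit to all 31 libraries (terms: genotype, labelled sex). The Benjamini-Hochberg adjustment of p ran over all 18477 genes, and a gene was called under 0.05. The +1 understates the change of genes with few reads.

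Before the Hox genes are described, some features of the libraries need to be stated. Etv2 itself had 0.220 to 2.52 CPM in Etv2 Δ/Δ, 0.220 to 2.98 in Etv2 enhΔ/Δ, 0 to 0.388 in Etv2 enhΔ/enhΔ, 0.729 to 3.59 in Etv2 +/Δ, 0 to 0.158 in Etv2 +/enhΔ and 0 to 0.491 in Etv2 +/+, and a count over the whole gene does not check the deletion of some of its exons. In the null yolk sacs (Etv2 Δ/Δ) against Etv2 +/+, 13.3% of all genes were called. All 10 red cell markers and 8 of 10 endothelial markers were called lower in that comparison. The visceral endoderm markers summed to 36538 CPM or more in every library. Of 11 libraries labelled male, 4 had Xist above 100 CPM and under 1 CPM over 4 Y-linked genes, and 1 library labelled female had 1 CPM or more over these genes. The pseudogene Ftl2-ps reached 36.5 to 50.2 CPM in 8 libraries (replicates 2 to 4 of Etv2 +/enhΔ, replicates 2 to 6 of Etv2 +/+) and 0.515 CPM or less in the other 23. Its state varied within Etv2 +/enhΔ and Etv2 +/+ alone, with 1 library of low Ftl2-ps in each. In bulk yolk sac RNA, fewer cells of a type and less RNA per cell cannot be told apart either.

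The upstream sequences of 3 members are shown because the results below single these members out. Hoxb8 was the member called in Etv2 Δ/Δ against Etv2 +/+ and against Etv2 +/Δ. Hoxb1 and Hoxb4 stood apart together in 1 library. They are the 250 bases before the RefSeq gene start (GRCm38.p6), written 5′ to 3′ on the strand of the gene, with matches on either strand to 1 motif in capitals. RefSeq windows were matched by symbol for 13 of the 27 members (14 windows).
Hoxb8, chr11:96281655-96281904, plus strand, TTTATNG in capitals: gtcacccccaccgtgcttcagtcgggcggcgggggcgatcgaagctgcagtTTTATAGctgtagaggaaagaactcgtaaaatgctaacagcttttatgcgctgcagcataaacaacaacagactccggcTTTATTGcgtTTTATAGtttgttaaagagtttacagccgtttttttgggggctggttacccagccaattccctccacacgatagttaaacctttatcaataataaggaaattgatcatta
Hoxb1, chr11:96365508-96365757, plus strand, TGATNNAT in capitals: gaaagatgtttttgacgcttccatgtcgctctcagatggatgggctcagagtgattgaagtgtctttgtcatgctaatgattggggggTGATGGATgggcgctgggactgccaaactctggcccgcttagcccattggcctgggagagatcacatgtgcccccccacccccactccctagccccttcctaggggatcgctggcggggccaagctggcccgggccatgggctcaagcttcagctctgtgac
Hoxb4, chr11:96318017-96318266, plus strand, AGGTCA in capitals: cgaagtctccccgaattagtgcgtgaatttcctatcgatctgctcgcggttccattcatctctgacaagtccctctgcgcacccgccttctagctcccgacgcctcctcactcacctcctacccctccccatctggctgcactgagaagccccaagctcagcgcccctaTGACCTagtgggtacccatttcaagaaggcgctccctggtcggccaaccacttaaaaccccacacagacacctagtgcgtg

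TTTATNG is a form of the sequence that Cdx factors bind, TGATNNAT of that bound by Hox proteins with their Pbx partners, AGGTCA is a half-site of retinoid receptors, and CCGGAA a core of Ets sites. TTTATNG occurred 3 times in the window of Hoxb8 and in no window of another member. That is 1 of 14 member windows with at least 1 match, against 9.81% of 32851 windows of the same length over all genes. TGATNNAT occurred in 3 of the 14 (Hoxa2, Hoxb1 and Hoxb8), and in 7.68% of all windows. AGGTCA occurred in 3 of the 14 (Hoxb4, Hoxc4 and Hoxd8), and in 14.02% of all windows. CCGGAA occurred in 1 of the 14 (Hoxa10), and in 12.03% of all windows. None of the matches in capitals overlapped a match to another of these 4 motifs, and a match only describes the letters.

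Hoxc8 was by far the most abundant Hox transcript of the yolk sac. It averaged 19.7 CPM per kb of exon over the 31 libraries, against 1.74 for Hoxb6, the highest Hoxb gene. Hoxc8 lay at the 84.4th percentile of all genes on this scale. Hoxc8 supplied 57.0% ± 11.3 of the summed Hox CPM (SD, n = 31), with a range of 28.3% to 77.9%. In every library it was the member with the most reads.

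**Figure D1:**
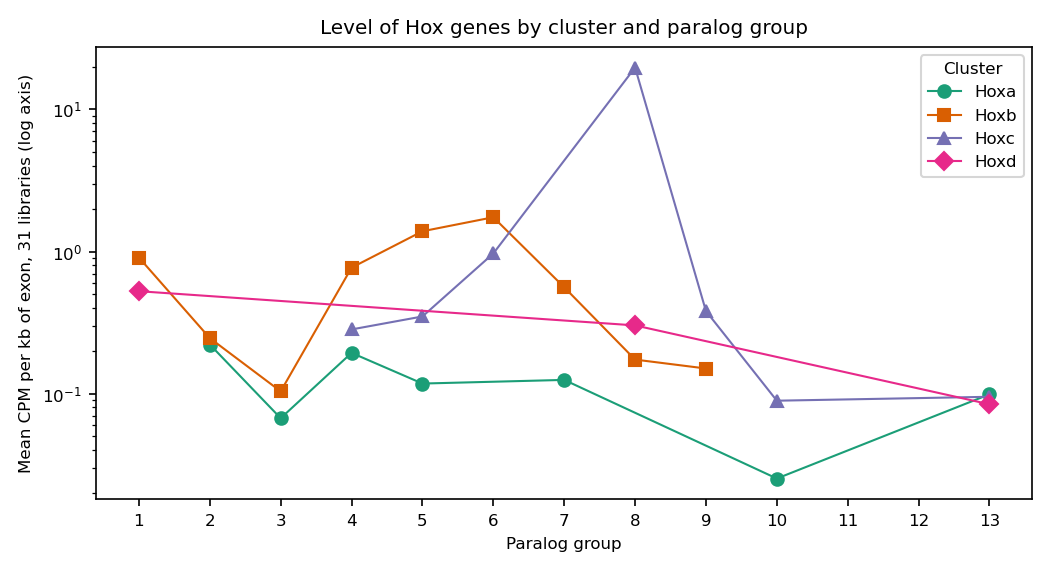
Mean CPM per kb of exon over 31 libraries (log axis) of Hox genes against their paralog group, with a line joining the members of each cluster that are plotted. Hoxc8 stands at 19.7, while Hoxb runs through a low point at Hoxb3 (0.104) to its highest member at Hoxb6 (1.74).

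Levels along the clusters were not even, and the highest member differed between clusters. In Hoxb, the anterior gene Hoxb1, which acts in hindbrain segment identity, was at 0.907 CPM per kb, Hoxb2 at 0.246 and Hoxb3 at 0.104. The level was higher again at Hoxb4 (0.771), a gene known for expanding blood progenitors, and at Hoxb5 (1.39) and Hoxb6 (1.74). It was lower at Hoxb7 (0.561), Hoxb8 (0.174) and Hoxb9 (0.150). Hoxb6, Hoxb5 and Hoxb1 were thus its 3 highest members, with a low point between them at Hoxb3.

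In Hoxc the order was Hoxc4 (0.283 CPM per kb), Hoxc5 (0.349), Hoxc6 (0.970), Hoxc8 (19.7), Hoxc9 (0.381), Hoxc10 (0.0892) and Hoxc13 (0.0951). Neighbours of Hoxc8 on both sides were therefore more than an order of magnitude lower. In Hoxa, Hoxa2 was at 0.222 CPM per kb and Hoxa4 at 0.194, and Hoxa10 was the lowest of all members (0.0253). Hoxd held Hoxd1 (0.526), Hoxd8 (0.302) and Hoxd13 (0.0842). Summed over members, Hoxc reached 21.9 CPM per kb, Hoxb 6.05 and Hoxd 0.913.

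By paralog group, the members of group 8 spanned the widest range, with Hoxc8 at 19.7, Hoxd8 at 0.302 and Hoxb8 at 0.174 CPM per kb. Group 6 had both measured members high, Hoxb6 at 1.74 and Hoxc6 at 0.970. Group 13, which patterns the tail, distal limb and genital bud, was low in its 3 measured members (Hoxa13, Hoxc13 and Hoxd13), from 0.0842 to 0.0990. In group 10, Hoxa10 was at 0.0253 and Hoxc10 at 0.0892.

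Most members were near the limit of detection. Only 9 of 27 averaged 1 CPM or more, 7 had a read in all 31 libraries (among them Hoxb4, Hoxb5, Hoxb6, Hoxb7, Hoxc6 and Hoxc8), and 17 never exceeded 5 CPM. Every member had reads somewhere. Hoxa10 had the fewest, with 35 reads in 7 libraries, and none in any Etv2 enhΔ/Δ or Etv2 +/+ library. For the low members the values of replicates were dominated by a few reads: Hoxa13 had 35 reads (2.37 CPM) in Etv2 +/+ replicate 4 and none in 4 of the other Etv2 +/+ libraries. For such genes only large differences between genotypes could be detected at this depth.

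**Figure D2:**
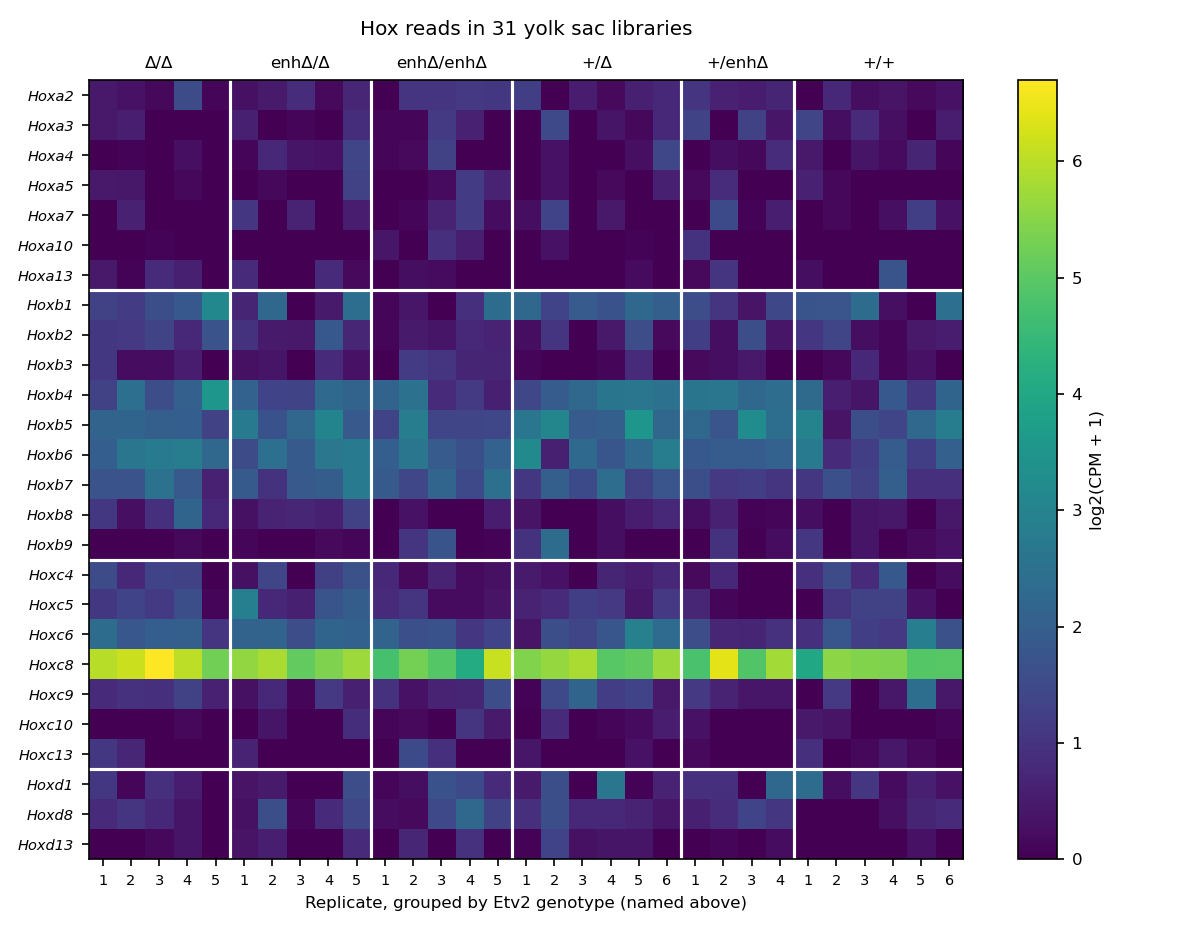
log2(CPM + 1) of Hox genes (rows, by cluster) in 31 libraries (columns, by Etv2 genotype and replicate). Hoxc8 forms the bright row in all genotypes, and Hoxb4 to Hoxb7 and Hoxc6 also had reads in every library.

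Some members also overlap other gene models. In the mm9 annotation, 40.4% of the exon bases of Hoxb8 (1069 bases) are shared with Hoxb7 on the same strand, 49.4% of those of Hoxb2 and 37.9% of those of Hoxb3 lie opposite Hoxb3os, and 20.4% of those of Hoxa7 lie opposite 2700086A05Rik. How reads in shared exons were assigned, and whether strand was used, is not given in the sources used here, so these values are uncertain. Hoxc8 (chromosome 15, 102821053 to 102824698, plus strand, mm9) and Hoxb6 share no exon bases with another annotated gene.

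Genotype was examined first by the sum over members. The 27 genes summed to 97.5, 100.1, 136.6, 105.5 and 93.3 CPM in Etv2 Δ/Δ. They summed to 81.2, 90.8, 50.9, 76.6 and 99.5 CPM in Etv2 enhΔ/Δ. The sums were 45.0, 73.4, 60.3, 45.4 and 98.9 CPM in Etv2 enhΔ/enhΔ. They were 62.3 to 92.5 (median 78.5) in Etv2 +/Δ, 57.5, 109.6, 56.4 and 80.4 in Etv2 +/enhΔ, and 52.4 to 71.7 (median 60.3) in Etv2 +/+. All Etv2 Δ/Δ libraries were above all Etv2 +/+ and Etv2 +/Δ libraries, whereas they overlapped the other 3 genotypes. Hoxc8 made up most of the difference in mean sum between Etv2 Δ/Δ and Etv2 +/+. Without it the sums were 29.3 to 55.5 CPM (median 35.5) in Etv2 Δ/Δ and 19.6 to 37.6 (median 25.8) in Etv2 +/+, which overlapped. This did not hold for Etv2 Δ/Δ replicate 5, the lowest sum of its genotype (93.3 CPM). Its Hoxc8 was at 37.9 CPM, and its other members summed to 55.5 CPM.

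The members of paralog groups 4 to 8 without Hoxc8 summed to 18.02 to 25.7 CPM (median 22.4) in Etv2 Δ/Δ and 9.29 to 20.8 (median 16.2) in Etv2 +/+. The posterior members of groups 9 to 13 summed to 0.522 to 2.47 CPM (median 1.82) in Etv2 Δ/Δ and 0.393 to 4.87 (median 1.98) in Etv2 +/+. Both classes overlapped between these genotypes.

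Gene by gene, few members passed the test. In Etv2 Δ/Δ against Etv2 +/+, 1 of 27 members was called, Hoxb8, where 13.3% of all genes were called, and 4 had an unadjusted p under 0.05 (Hoxb4, Hoxb6, Hoxb8 and Hoxc8, each higher in Etv2 Δ/Δ). The median difference of the members was 0.15, beside -0.01 over all genes, and 18 of 27 lay above 0, beside 49.2% of all genes. In Etv2 Δ/Δ against Etv2 +/Δ, 1 of 27 was called, again Hoxb8, where 13.4% of all genes were called, and the median of the members was -0.04, with 12 of 27 above 0. Both comparisons use the same Etv2 Δ/Δ libraries. Against Etv2 +/+, 18 of 27 members also lay above 0 in Etv2 enhΔ/Δ (median 0.14) and 20 of 27 in Etv2 +/Δ (median 0.11). The counts were 17 in Etv2 enhΔ/enhΔ (median 0.10) and 15 in Etv2 +/enhΔ (median 0.02). Of all genes, 49.9% to 51.6% lay above 0 in these comparisons.

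The other comparisons called no member by limma. They were Etv2 enhΔ/Δ against Etv2 +/+ (1.33% of all genes called, 2 members with an unadjusted p under 0.05), Etv2 Δ/Δ against Etv2 enhΔ/Δ (4.9% of all genes, 0 members) and Etv2 enhΔ/Δ against Etv2 +/Δ (1.24% of all genes, 0 members). Likewise none was called in Etv2 enhΔ/enhΔ against Etv2 +/+ (0.0216% of all genes, 4 members with an unadjusted p under 0.05), Etv2 +/Δ against Etv2 +/+ (0.0271%, 1 member) or Etv2 +/enhΔ against Etv2 +/+ (0%, 2 members). The F test over the 6 genotypes called 0 of 27 members, where 12.1% of all genes were called, and 3 had an unadjusted p under 0.05 (Hoxb4, Hoxb8 and Hoxc5). A voom fit to the recovered reads called 0 members in any of these comparisons. The comparisons against Etv2 +/+ share those 6 libraries.

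**Figure D3:**
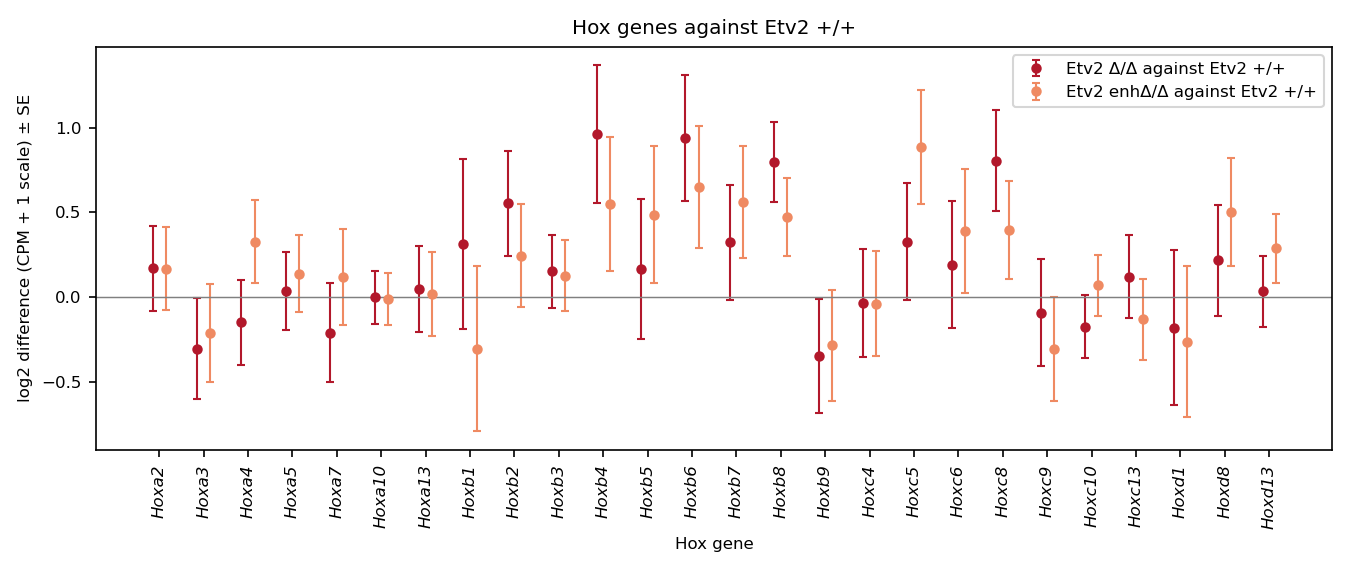
Difference on the log2(CPM + 1) scale with its SE for Hox genes in Etv2 Δ/Δ (dark red) and Etv2 enhΔ/Δ (orange) against Etv2 +/+. Hoxb8 in Etv2 Δ/Δ (0.80 ± 0.24) was the only point past the adjusted threshold, and Hoxb1 had the widest bar (SE 0.50 in Etv2 Δ/Δ).

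Hoxb8, a posterior gene of trunk identity whose forced expression blocks differentiation of myeloid progenitors, rose in Etv2 Δ/Δ but stayed rare. It had 1.13, 0.220, 0.881, 3.497 and 0.697 CPM in Etv2 Δ/Δ, from 3, 5, 16, 34 and 8 reads. It had 0.226, 0.584, 0.659, 0.515 and 1.49 CPM in Etv2 enhΔ/Δ. In Etv2 enhΔ/enhΔ it was at 0.263 CPM in replicate 2, at 0.443 in replicate 5 and at 0 in the other 3 libraries. Of the 5 Etv2 Δ/Δ libraries, 4 were above the highest Etv2 +/+ library, and replicate 4 was far above the others. The values were 0 to 0.705 CPM (median 0.230) in Etv2 +/Δ, 0.194, 0.525, 0.0551 and 0.0788 in Etv2 +/enhΔ, and 0 to 0.348 (median 0.238) in Etv2 +/+.

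The difference of Hoxb8 was 0.80 (SE 0.24, limma adjusted p = 0.0223) in Etv2 Δ/Δ against Etv2 +/+ and 0.72 (SE 0.23, adjusted p = 0.0336) against Etv2 +/Δ. In Etv2 enhΔ/Δ against Etv2 +/+ it was 0.47 (SE 0.23, adjusted p = 0.421), and Etv2 Δ/Δ and Etv2 enhΔ/Δ differed by 0.32 (SE 0.24, adjusted p = 0.553). The call rests on single libraries: without Etv2 Δ/Δ replicate 4 the difference against Etv2 +/+ was 0.55 (adjusted p = 0.0677), and without Etv2 +/+ replicate 2 it was 0.72 (adjusted p = 0.0752). It was also lost by voom on the recovered reads (adjusted p = 0.0814), with a term for high or low Ftl2-ps (adjusted p = 0.223) and with only these 2 genotypes in the fit (adjusted p = 0.175). Against Etv2 +/Δ it was lost without Etv2 Δ/Δ replicate 1, 3 or 4 (limma adjusted p = 0.0597, 0.0509 and 0.130; difference 0.46 without replicate 4), without Etv2 +/Δ replicate 2, 3 or 4 (adjusted p = 0.0922, 0.0914 and 0.0534), and by voom (adjusted p = 0.196). Hoxb7, which shares exons with Hoxb8, differed by 0.32 (SE 0.34, adjusted p = 0.614) in Etv2 Δ/Δ against Etv2 +/+.

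Hoxc8, which patterns thoracic segments, had the largest difference in CPM between Etv2 Δ/Δ and Etv2 +/+. It had 62.0, 70.8, 102.7, 64.6 and 37.9 CPM in Etv2 Δ/Δ, and 47.7, 56.9, 33.2, 41.3 and 51.7 CPM in Etv2 enhΔ/Δ. The other mutants had 25.7, 38.4, 29.5, 16.5 and 68.6 CPM in Etv2 enhΔ/enhΔ, 29.8 to 56.1 (median 45.6) in Etv2 +/Δ, and 26.3, 85.3, 28.5 and 53.7 in Etv2 +/enhΔ. Etv2 +/+ libraries had 14.8 to 45.5 CPM (median 35.6). Replicates 1 to 4 of Etv2 Δ/Δ were above every Etv2 +/+ and Etv2 +/Δ library, and replicate 5 was within the range of both.

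**Figure D4:**
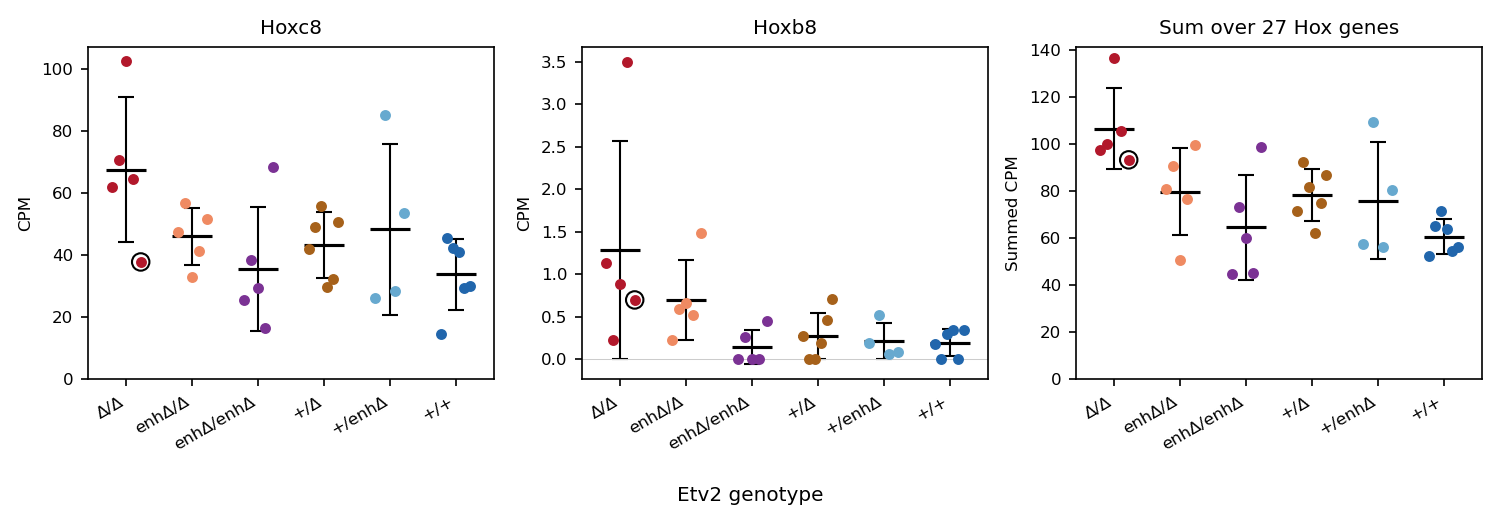
CPM of Hoxc8 and Hoxb8 and the summed CPM of 27 Hox genes by Etv2 genotype; points are libraries, bars the mean ± SD, and the ringed point is Etv2 Δ/Δ replicate 5. In the right panel the 5 Etv2 Δ/Δ libraries (93.3 to 136.6) lie above the 6 Etv2 +/+ libraries (52.4 to 71.7).

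Hoxc8 averaged 67.6 ± 23.3 CPM in Etv2 Δ/Δ (SD, n = 5) and 33.9 ± 11.5 in Etv2 +/+ (SD, n = 6), a difference of 0.81 (SE 0.30) that did not pass the limma test (adjusted p = 0.0707). It passed without Etv2 Δ/Δ replicate 5 (0.97, adjusted p = 0.0395), without the sex term (0.99, adjusted p = 0.0256) and with a term for high or low Ftl2-ps (1.79, adjusted p = 0.00165). The last value rests on the Ftl2-ps difference within Etv2 +/+ and within Etv2 +/enhΔ, each with 1 library of low Ftl2-ps. That of Etv2 +/+, replicate 1, had the lowest Hoxc8 of all 31 libraries (14.8 CPM). Against Etv2 +/Δ and Etv2 enhΔ/Δ, which had no library of high Ftl2-ps, the difference was smaller. It was 0.48 (SE 0.29, adjusted p = 0.317) against Etv2 +/Δ and 0.41 (SE 0.30, adjusted p = 0.548) against Etv2 enhΔ/Δ. Etv2 enhΔ/enhΔ, also without high Ftl2-ps, was not compared directly with Etv2 Δ/Δ. Its Hoxc8 averaged 35.8 CPM and differed from Etv2 +/+ by -0.00916 (SE 0.287). In Etv2 enhΔ/Δ against Etv2 +/+ the Hoxc8 difference was 0.40 (SE 0.29, adjusted p = 0.659).

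Markers of extraembryonic mesoderm had their highest sums in Etv2 Δ/Δ and Etv2 enhΔ/Δ. The 12 genes of that list summed to 2758 to 5063 CPM in Etv2 Δ/Δ, 2904 to 3865 in Etv2 enhΔ/Δ, 1586 to 2605 in Etv2 enhΔ/enhΔ, 1716 to 2705 in Etv2 +/Δ, 2309 to 2444 in Etv2 +/enhΔ and 2137 to 2563 in Etv2 +/+, and none of them was at 0 in any library. In Etv2 Δ/Δ against Etv2 +/+, 5 of the 12 were called higher and 0 lower, where 13.3% of all genes were called. In Etv2 enhΔ/Δ against Etv2 +/+, again 5 were called higher and 0 lower, where 1.33% of all genes were called. The Etv2 Δ/Δ library with the lowest Hoxc8, replicate 5, also had the lowest sum of that genotype (2758 CPM). The markers did not follow Hoxc8 within every genotype. In Etv2 +/enhΔ, Hoxc8 ran from 26.3 to 85.3 CPM while the marker sum stayed at 2309 to 2444 CPM. The part of these markers in the Hoxc8 result was not tested.

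The next members by the size of the test were Hoxb6 and Hoxb4. Hoxb6 had 3.02, 5.24, 5.67, 6.17 and 3.74 CPM in Etv2 Δ/Δ, against 0.766 to 5.78 (median 2.11) in Etv2 +/+, a difference of 0.94 (SE 0.37, limma adjusted p = 0.0951). It had 1.92 to 5.82 CPM in Etv2 enhΔ/Δ and 0.515 to 7.98 in Etv2 +/Δ, so that the spread within genotypes covered the difference. Hoxb6 in Etv2 Δ/Δ against Etv2 +/+ was -0.16 when only the 23 libraries of low Ftl2-ps were kept, which leaves 1 Etv2 +/+ library. Hoxb4 differed by 0.96 (SE 0.41, adjusted p = 0.121) in Etv2 Δ/Δ against Etv2 +/+, and by 0.07 (SE 0.40, adjusted p = 0.945) in Etv2 Δ/Δ against Etv2 +/Δ.

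Hoxb5 and Hoxc6, which also had reads in every library, gave no difference beyond their spread. Hoxb5 averaged 2.88 ± 0.812 CPM in Etv2 Δ/Δ and 3.49 ± 2.67 in Etv2 +/+ (SD, n = 5 and 6), whereas the fitted log2 difference had the opposite sign (0.17, SE 0.41). Hoxc6 averaged 2.75 ± 1.13 CPM in Etv2 Δ/Δ and 2.39 ± 1.98 in Etv2 +/+ (difference 0.19, SE 0.38). These errors leave room for changes of about the size seen for Hoxc8. Hoxc5, chosen after its values were seen, had 6.44, 0.681, 0.513, 2.32 and 2.91 CPM in Etv2 enhΔ/Δ and 0 to 1.49 (median 0.652) in Etv2 +/+, a difference of 0.89 (SE 0.34, adjusted p = 0.252), with the highest value of all 31 libraries in Etv2 enhΔ/Δ replicate 1.

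In Etv2 enhΔ/enhΔ against Etv2 +/+ the 4 members under an unadjusted p of 0.05 were Hoxa2, Hoxa10, Hoxb3 and Hoxd8, each with a higher mean in Etv2 enhΔ/enhΔ. Hoxd8 had 0.157, 0.131, 1.78, 3.73 and 1.497 CPM in Etv2 enhΔ/enhΔ, against 0 to 0.783 (median 0.102) in Etv2 +/+, a difference of 0.78 (SE 0.31, limma adjusted p = 0.631). Hoxa10 had 0.314, 0, 0.889, 0.475 and 0 CPM in Etv2 enhΔ/enhΔ and no read in any Etv2 +/+ library (adjusted p = 0.631). All 4 are among the 18 members that averaged under 1 CPM.

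The genes Hoxb1 and Hoxb4 stood apart in 1 library, Etv2 Δ/Δ replicate 5. Hoxb1 had 1.51, 1.28, 2.04, 2.57 and 7.75 CPM in Etv2 Δ/Δ, against 0 to 4.44 (median 2.37) in Etv2 +/+. Hoxb4 had 1.51, 4.44, 1.98, 3.19 and 10.4 CPM in Etv2 Δ/Δ, against 0.295 to 3.97 (median 1.85) in Etv2 +/+. For both genes replicate 5 was the highest of all 31 libraries, and the other Etv2 Δ/Δ libraries overlapped Etv2 +/+.

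In the same library most neighbouring genes were not high. Hoxb5 was at 1.48 CPM (30 of 31 from the top), Hoxb7 at 0.522 (the lowest of all libraries), Hoxc6 at 1.04, and Hoxa3, Hoxa4, Hoxa5, Hoxa7, Hoxb3, Hoxc4, Hoxd1 and Hoxd8 had no reads. Hoxb2, which lies between Hoxb1 and Hoxb3, was at 2.26 CPM, the second highest value. The difference of Hoxb4 in Etv2 Δ/Δ against Etv2 +/+ was 0.96 with this library and 0.61 without it (limma adjusted p = 0.388).

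Of the neural ectoderm markers, Lhx2 and Pax3 were high there and the others were not. The 9 measured genes of that list (of 20) summed to 43.6 CPM in Etv2 Δ/Δ replicate 5, nearly all of it from these genes, against 2.01 to 11.4 CPM in the Etv2 +/+ libraries. Lhx2 was at 38.2 CPM (8.92 at most in the other 30 libraries) and Pax3 at 5.05 (1.38 at most), whereas Otx2, Sox2 and Pax6 had no reads. En1, En2, Hesx1 and Zic2 had 1 read each (0.0871 CPM), below their medians over the other 30 libraries (0.124, 0.365, 0.709 and 0.298 CPM). Among markers of allantois and extraembryonic mesoderm, Hand1 was at 377 CPM (301 at most in the other 30 libraries) and Tbx5 at 11.3 (9.75 at most). Hand2 was at 23.51 CPM (21.98 at most) and Pmp22 at 770.6 (714.9 at most). The remaining markers of these lists lay within the range of the other 30 libraries. Ahnak, Bmp7, Col1a1, Col1a2, Krt19, Pitx1, Upk3b and Vim were below their medians there. Bmp4, Col3a1, Foxf1, Postn, Snai1, Tbx2 and Wnt2 were above theirs, and Tbx4 had no reads. These genes were chosen after their values were seen, and their part in the Hoxb1 and Hoxb4 values was not tested.

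**Figure D5:**
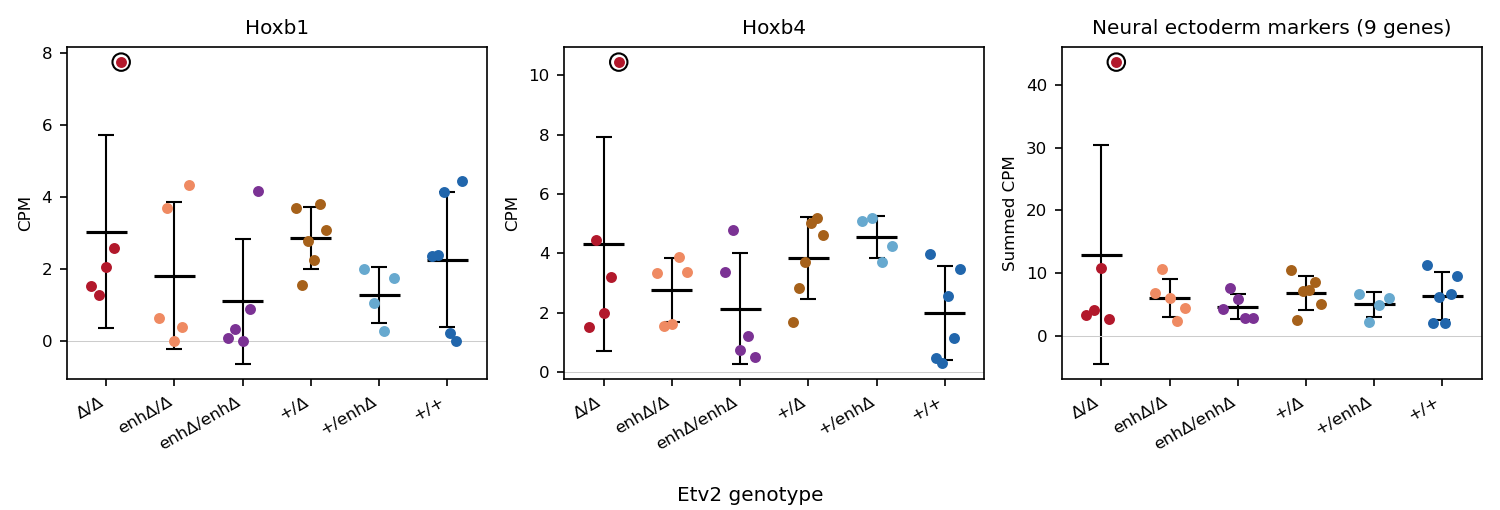
CPM of Hoxb1 and Hoxb4 and the summed CPM of 9 neural ectoderm markers by Etv2 genotype; points are libraries and bars the mean ± SD. The ringed library, Etv2 Δ/Δ replicate 5, is the highest in each panel (7.75, 10.4 and 43.6); Lhx2 alone gave 38.2 of the 43.6.

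Outside that library the highest values of the members were scattered. The 27 members had their highest value in 17 different libraries, with no more than 3 in any of them. Of the 4 clusters, Hoxd summed to 6.44 CPM at most, in Etv2 enhΔ/enhΔ replicate 4, and to 0 in Etv2 Δ/Δ replicate 5. Hoxb summed to 7.76 to 27.9 CPM over all libraries.

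Partners and regulators of Hox genes were examined from lists. Cofactors of the TALE class bind DNA together with Hox proteins, and 8 were measured. In Etv2 Δ/Δ against Etv2 +/+, 1 of the 8 was called by limma, where 13.3% of all genes were called. In Etv2 enhΔ/Δ against Etv2 +/+, 1 was called, beside 1.33% of all genes. The cofactor Pbx2 was not called and differed by 0.39 (SE 0.16, limma adjusted p = 0.106) in Etv2 Δ/Δ against Etv2 +/+.

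Of 8 upstream regulators and cluster neighbours, 0 were called in Etv2 Δ/Δ against Etv2 +/+ by limma, where 13.3% of all genes were called. Against Etv2 +/Δ, 1 of the 8 was called, where 13.4% of all genes were called. The F test over genotype also called 1, beside 12.1% of all genes. Gbx2, a gene of the anterior hindbrain, had no reads in any Etv2 Δ/Δ library and 0.338 to 2.497 CPM in Etv2 +/+ (difference -1.05, SE 0.39, adjusted p = 0.0683). Cdx2, which activates the middle of the clusters and is also a factor of extraembryonic tissue, had 10.8 to 18.5 CPM in Etv2 Δ/Δ and 7.99 to 19.6 in Etv2 +/+, which overlapped.

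Of 16 genes for retinoic acid synthesis, breakdown and reception, 4 rose and 0 fell in Etv2 Δ/Δ against Etv2 +/+, where 13.3% of all genes were called, and their median difference was 0.16, beside -0.01 over all genes. Crabp2, which carries retinoic acid to its receptors, rose to 32.4 to 61.4 CPM (median 36.6) in Etv2 Δ/Δ, against 6.42 to 18.1 (median 9.41) in Etv2 +/+ (1.98, SE 0.30, adjusted p = 1.7e-05), with no overlap. Rxra, a retinoid receptor partner, rose by 0.60 (SE 0.17, adjusted p = 0.0129). In Etv2 enhΔ/Δ against Etv2 +/+ none of the 16 was called, beside 1.33% of all genes, and Crabp2 differed by 0.86 (SE 0.30, adjusted p = 0.182).

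Of 24 Polycomb and trithorax genes, 2 rose and 4 fell in Etv2 Δ/Δ against Etv2 +/+, where 13.3% of all genes were called. Chd7, a chromatin remodeller, was at 12.9 to 23.3 CPM in Etv2 Δ/Δ, against 40.0 to 85.2 in Etv2 +/+, and fell by 1.82 (SE 0.23, adjusted p = 6.8e-07). Ezh2, the methyltransferase of Polycomb complex PRC2, was at 75.6 to 109.3 CPM in Etv2 Δ/Δ and 106.1 to 147.5 in Etv2 +/+, and fell by 0.56 (SE 0.11, adjusted p = 0.000776). In Etv2 enhΔ/Δ against Etv2 +/+, 0 of the 24 were called, beside 1.33% of all genes.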

How the data were processed

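Yolk sac RNA was sequenced, with RNA isolated by the RNeasy Plus Micro kit and libraries made by the Trio RNA-seq kit. The authors trimmed reads with fastq-mcf, aligned them with STAR 2.5.2a to mm9, counted Ensembl genes with featureCounts and scaled them with edgeR. The values deposited by the authors are log2(CPM + 1). The same table holds 9 columns of the authors' comparisons (fold changes, test statistics, p values and false discovery rates), which were not used. The study's model also had a term for 2 processing batches, which the labels do not give.

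Values were turned back into reads, and 100% were whole within 0.01 reads. Precision is limited by the 2671612 to 22396340 reads per library. limma 3.58.1 (R 4.3.3, trend, 24 residual degrees of freedom) was fitted to all 31 libraries with genotype and labelled sex, tested beforehand on simulated data. Replicates are samples with a labelled sex each; that each is 1 embryo is not stated, so p-values measure the spread between these samples. CPM per kb used the union exon length in mm9. Other values came from Python 3.11.15, numpy 2.4.6 and pandas 2.3.3, and figures from matplotlib 3.10.9. Groups came from the sample titles.

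The named genes were the members called in any test, the 3 highest and the lowest of each cluster by CPM per kb, and the 2 genes with the smallest F-test p in each list of cofactors, upstream regulators, retinoic acid genes and Polycomb and trithorax genes; values of some of them are not reported here. Marker lists covered neural ectoderm, paraxial mesoderm, allantois, extraembryonic mesoderm, visceral endoderm, red cells and endothelium. The members and lists were chosen with earlier results of these data known. Paraxial mesoderm markers (5 of 15 measured) summed to 0.220 to 3.19 CPM in Etv2 Δ/Δ and 1.99 to 2.87 in Etv2 +/+, and allantois markers (8) to 55.2 to 76.9 CPM in Etv2 Δ/Δ and 40.7 to 61.6 in Etv2 +/+. Alternatives were no sex term, replicate number as a block, Ftl2-ps state as a term, a filter, quantile normalization, a pseudocount of 0.25, voom on the reads, a threshold of 0.01, only the 2 genotypes compared and each library left out; keeping only the 23 libraries of low Ftl2-ps, and CPM per kb for the Hoxc8 share, were added after the data were seen.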

Additional observations from a re-analysis of the deposited data

Results flagged for a closer look

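A library was listed where its gap to the nearest of its group exceeded Dixon's 95% critical value, in groups of 4 to 6 libraries. Chance gives about 1 flag in 20 groups; 28 flags arose from 118 groups, many in genes with a handful of reads, and 2 of them fell on Etv2 Δ/Δ replicate 5. All values are CPM, followed by the range of the other libraries of that genotype.

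In Etv2 Δ/Δ replicate 5, Hoxb1 was at 7.75 (1.28 to 2.57) and Hoxb5 low at 1.48 (2.98 to 3.48). Replicate 4 of Etv2 Δ/Δ had Hoxb8 at 3.497 (0.220 to 1.13), Hoxa2 at 1.95 (0.0871 to 0.378), Hoxa4 at 0.206 (0 to 0.0440) and Hoxc10 at 0.103 (others 0). Replicate 3 of Etv2 Δ/Δ had a sum over all members of 136.6 (93.3 to 105.5) and Hoxa10 at 0.0551 (others 0). In Etv2 enhΔ/Δ, Hoxc6 was low at 1.98 in replicate 3 (3.23 to 3.48) and Hoxd1 high at 2.01 in replicate 5 (0 to 0.389).

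In Etv2 enhΔ/enhΔ, Hoxa2 was at 0 in replicate 1 (1.04 to 1.15), Hoxb5 at 6.18 in replicate 2 (1.57 to 1.66), Hoxa4 at 1.48 in replicate 3 (0 to 0.131) and Hoxb1 at 4.16 in replicate 5 (0 to 0.881). In Etv2 +/Δ replicate 2, Hoxd8 was at 2.06 (0.321 to 0.912), Hoxd13 at 1.55 (0 to 0.310) and Hoxa10 at 0.258 (0 to 0.0513). Etv2 +/Δ replicate 5 had Hoxb3 at 0.769 (0 to 0.0912) and replicate 6 had Hoxa4 at 1.67 (0 to 0.258). In Etv2 +/enhΔ, replicate 1 had Hoxa10 at 0.968 and Hoxc10 at 0.258 (others 0), and replicate 4 had a Hoxd sum of 4.96 (1.42 to 1.77).

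In Etv2 +/+, replicate 1 had Hoxd1 at 4.15 (0.135 to 1.08) and a Hoxd sum of 4.15 (0.192 to 1.37), and replicate 3 had Hoxb3 at 0.687 (0 to 0.2497). Etv2 +/+ replicate 5 had Hoxc6 at 6.24 (0.903 to 2.49), Hoxc9 at 4.37 (0 to 1.15) and Hoxd13 at 0.2497 (others 0). The cause of these values was not tested.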

How the results depend on the processing

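The 6 comparisons other than the F test and those of Etv2 Δ/Δ with Etv2 +/+ and Etv2 +/Δ called 0 members under every alternative run. In Etv2 Δ/Δ against Etv2 +/+ (1 called), 0 were called at an adjusted p under 0.01, by voom, with only the 2 genotypes compared and in the 23 libraries of low Ftl2-ps, and 2 without the sex term; leaving out 1 library gave 0 to 2 (0 without Etv2 Δ/Δ replicate 4 or Etv2 +/+ replicate 2). With the Ftl2-ps term or the filter on a mean log2 of at least 1, which leaves out Hoxb8, the 1 called was Hoxc8. In Etv2 Δ/Δ against Etv2 +/Δ (1 called), 0 were called at 0.01, with the filter, by voom, with only the 2 genotypes and in the 23 libraries; leaving out 1 library gave 0 to 1 (0 without Etv2 Δ/Δ replicate 1, 3 or 4 or Etv2 +/Δ replicate 2, 3 or 4). The F test (0 called) called 1 without the sex term and by quantile normalization (Hoxb8), and 1 with the Ftl2-ps term and in the 23 libraries (Hoxc8); leaving out 1 library gave 0 to 1 (Hoxb8 without Etv2 Δ/Δ replicate 2, Etv2 enhΔ/Δ replicate 1, Etv2 enhΔ/enhΔ replicate 5, Etv2 +/Δ replicate 6 or Etv2 +/enhΔ replicate 2, and Hoxc5 without Etv2 Δ/Δ replicate 5 or Etv2 enhΔ/Δ replicate 2 or 3). Hoxb6 in Etv2 Δ/Δ against Etv2 +/+ reversed to -0.16 in the 23 libraries. The Hoxc8 share was 60.4% on the per-kb scale. The cause was not tested beyond the smaller number of genes or libraries.

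Leaving out 1 library in turn, Hoxb8 in Etv2 Δ/Δ against Etv2 +/+ ranged from 0.55 to 0.97 and against Etv2 +/Δ from 0.46 to 0.90, and Hoxc8 against Etv2 +/+ from 0.51 to 0.97. Replicate numbers are shared between genotypes only as numbers: same-numbered libraries did not deviate together (median correlation -0.0108 over 71 pairs, 1 above 0.1, beside 0.00361 over 328 other pairs). With a replicate block, 1 member was called in Etv2 Δ/Δ against Etv2 +/+ (Hoxb8, 0.81), 1 against Etv2 +/Δ (Hoxb8, 0.76), and 0 in the other comparisons. Low read numbers limit all members but Hoxc8.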
